A study of Mus musculus with 5 samples.

Results

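The transcripts described here come from 8010 loci of mouse testis that the authors assembled, typed as intergenic and gave no Ensembl gene name. A locus was taken when all of its transcripts in the deposited lncRNA table were of the intergenic type, all were marked by the authors as not yet known and none had a gene name. The table has 16356 lncRNA loci in all, and these 8010 held 14008 assembled transcripts. Loci and transcripts keep the identifiers of the assembly (XLOC and TCONS numbers).

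The series measured long and circular RNA in whole testis after triptolide, a plant diterpenoid that blocks transcription by RNA polymerase II through the XPB subunit of TFIIH and is toxic to the male germ line. Wild-type male mice of 10 weeks (strain spelled C57/BL6J in the labels) received 50 µg/kg of triptolide by stomach tube each day, and control mice received saline. Testes were taken 35 days after treatment. Each group had 6 mice, and ribosomal RNA was depleted before directional libraries were made. The tables hold 2 control and 3 triptolide libraries, and the labels do not say whether a library is 1 animal or a pool, so the p-values measure the spread between these libraries only. In the lncRNA table, 2 triptolide columns share a header and are called triptolide A and triptolide B here. The remaining triptolide column carries its own number and is called triptolide 3.

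Long noncoding RNAs are transcripts without a long reading frame, and the testis is known for expressing more of them than other organs. Many are made in spermatocytes and spermatids, and some intergenic transcripts of these cells are precursors of pachytene piRNAs, small RNAs that guide PIWI proteins. Intergenic transcripts often begin beside the start of a gene and run away from it, because many promoters fire in both directions. An assembled transcript that lies just behind a gene on the same strand can be a separate RNA or the unannotated end of that gene's RNA.

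To show what lies at the starts of some of these loci, promoter windows of 250 bases before a gene's start were taken from RefSeq (GRCm38.p6). Of the 8010 loci, 570 began within 100 bases of the start of a RefSeq gene on the same strand, and 553 lay head to head with a RefSeq gene, with starts at most 1000 bases apart and pointing away from each other. The latter gene was protein-coding for 340 loci. Starts that cross by less than 300 bases were also taken as head to head, and such a locus overlaps its gene on the other strand. Capitals mark matches on either strand to 5 motifs, the TATA box (TATAAA), the cyclic AMP response element (TGACGTCA), the MYB core (AACNG), an RFX half-site (GTTGCCA) and the GC box (GGGCGG). The first pair are the windows of 4930449C09Rik (chr15:63718098-63718347 on the plus strand) and 4930444F02Rik (chr10:18831931-18832180 on the minus strand), where XLOC_067852 and XLOC_018988, which are among the 10 most counted loci, begin. The remaining windows belong to genes that start head to head with a locus that changed after triptolide, namely 4930520O04Rik (chr9:114368074-114368323 on the plus strand), Akirin2 (chr4:34550365-34550614 on the plus strand), Ttc29 (chr8:78213092-78213341 on the plus strand) and Tmc7 (chr7:118584687-118584936 on the minus strand).
4930449C09Rik: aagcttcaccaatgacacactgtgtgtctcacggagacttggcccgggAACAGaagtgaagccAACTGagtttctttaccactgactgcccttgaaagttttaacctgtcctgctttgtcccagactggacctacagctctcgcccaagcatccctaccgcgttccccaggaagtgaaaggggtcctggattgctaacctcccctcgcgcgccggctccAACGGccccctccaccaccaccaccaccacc
4930444F02Rik: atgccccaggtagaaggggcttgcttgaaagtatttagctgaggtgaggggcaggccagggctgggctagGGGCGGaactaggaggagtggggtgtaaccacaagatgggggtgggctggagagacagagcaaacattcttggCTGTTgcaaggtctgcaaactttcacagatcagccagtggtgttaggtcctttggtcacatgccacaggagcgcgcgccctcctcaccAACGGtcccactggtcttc
4930520O04Rik: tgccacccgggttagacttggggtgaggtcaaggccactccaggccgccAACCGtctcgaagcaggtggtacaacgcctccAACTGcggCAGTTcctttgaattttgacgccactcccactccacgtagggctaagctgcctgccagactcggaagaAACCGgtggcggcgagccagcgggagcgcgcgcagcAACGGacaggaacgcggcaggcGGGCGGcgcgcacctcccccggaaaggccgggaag
Akirin2: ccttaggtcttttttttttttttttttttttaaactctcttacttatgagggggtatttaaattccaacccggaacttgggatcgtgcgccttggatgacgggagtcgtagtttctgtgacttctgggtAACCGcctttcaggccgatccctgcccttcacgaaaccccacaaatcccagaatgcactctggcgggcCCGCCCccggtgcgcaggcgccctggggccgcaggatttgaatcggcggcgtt
Ttc29: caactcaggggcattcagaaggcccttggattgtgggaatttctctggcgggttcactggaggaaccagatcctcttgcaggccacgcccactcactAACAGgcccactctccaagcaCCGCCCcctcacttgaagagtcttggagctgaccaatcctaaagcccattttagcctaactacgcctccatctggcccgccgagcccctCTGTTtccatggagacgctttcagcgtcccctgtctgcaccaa
Tmc7: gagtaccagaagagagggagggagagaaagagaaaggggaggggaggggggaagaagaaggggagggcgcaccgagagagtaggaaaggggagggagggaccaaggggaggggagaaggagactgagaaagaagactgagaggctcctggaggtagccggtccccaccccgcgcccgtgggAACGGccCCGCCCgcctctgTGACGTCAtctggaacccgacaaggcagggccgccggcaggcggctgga

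The Tmc7 window holds 1 cyclic AMP response element, which the others lack. GC boxes stand in 63.5% of the 340 windows of protein-coding genes that lie head to head with a locus and in 42.6% of all 21263 windows of protein-coding genes. For the TATA box the shares were 4.4% and 11.6%, and for the cyclic AMP response element 5.0% and 1.9%. Of the 570 windows where a locus itself begins, 12.8% held a GC box and 13.9% a TATA box. This is close to the 14.6% and 13.7% of the 11588 windows of genes that are not protein-coding, and over all 32851 windows the shares were 32.7% and 12.4%. The MYB core, a short motif that is common by its length, stood in 78.6% of the 570 and in 76.1% of the windows that are not protein-coding (74.2% of all). The RFX half-site was found in 7.0% and 3.9% (3.7% of all), and the cyclic AMP response element in 3.2% and 0.9% (1.5% of all). The median GC content was 62.0% beside protein-coding partners and 55.6% in all windows of protein-coding genes. It was 48.4% both where loci begin and in all windows that are not protein-coding, and 52.4% over all windows. These matches are descriptions of the letters in the windows and do not show that a factor binds there.

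The loci were mostly simple and rare. All had at least 2 exons, 4220 had no transcript of more than 2 exons, and the longest had 17. A single transcript was assembled for 5534 loci, and the most at 1 locus was 27. The median span was 5058 bases (252 to 398624), close to the 5354 bases of intergenic loci that do carry a known lncRNA. They fell evenly on both strands, with 3995 on the plus and 4015 on the minus strand. The loci lack a gene in Ensembl only, since 3388 of the loci (42.3%) overlapped the span of a RefSeq gene 1770 overlapped a RefSeq lncRNA on the same strand and 159 a protein-coding gene on the same strand.

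Counts are given as CPM, a count scaled to a fixed total of lncRNA counts per library. Library totals ran from 947287 to 1070998 counts. The median locus had a mean of 4.33 CPM, 1994 loci had at least 20 CPM, 586 at least 100 CPM and 46 at least 1000 CPM. The 10 most counted loci held 15.8% of the CPM of all 8010, and the top 100 held 45.7%. In 118 loci every library had 0 counts. Enough counts for the test of single loci were found for 3138 loci (39.2%), and 4862 of the 4872 others had a mean under 10 counts.

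Over whole libraries, the loci took 33.9% and 33.7% of all lncRNA counts in the control libraries, 34.7% in triptolide A, 34.1% in triptolide B and 36.1% in triptolide 3. The 3 triptolide libraries lay above both controls, by 1.19 percentage points in the mean (two-sided exact permutation test p = 0.2), and 0.1 is the smallest p that 2 against 3 libraries allow. Without triptolide 3 the difference was 0.633 points. Without the 10 most counted loci the shares overlapped and the difference was 0.218 points (exact permutation p = 0.6), so most of the difference was lost with them. Set against intergenic loci with a known lncRNA, the counts were 1.588 and 1.625 times as many in the controls and 1.817, 1.697 and 1.911 times as many in triptolide A, B and 3 (exact permutation p = 0.2). The number of loci with at least 1 count, after thinning to equal totals, was 5765 and 5595 in the controls and 5720, 5818 and 5787 after triptolide (exact permutation p = 0.3), with overlap.

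**Figure D1:**
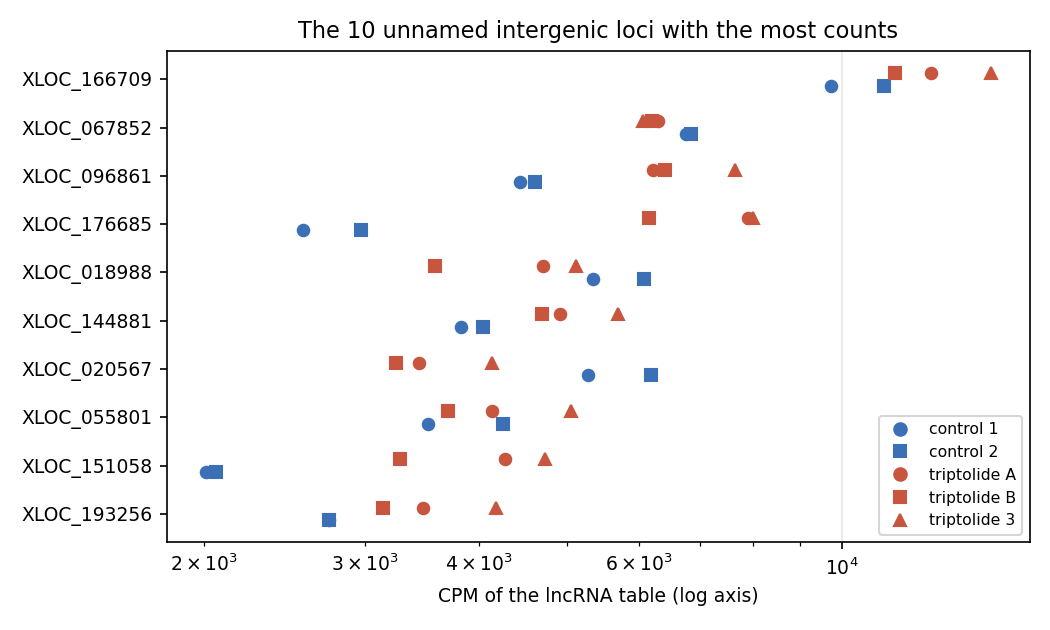
CPM (log axis) of the 10 unnamed intergenic loci with the highest mean over 5 libraries, 1 symbol a library, control in blue and triptolide in red. The triptolide symbols of XLOC_176685 and XLOC_151058 lie clear to the right of the controls and those of XLOC_020567 to the left.

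The 10 most counted loci are spread over 8 chromosomes and did not move together. XLOC_166709 (chr7:73104850-73166436, plus strand) had the most counts, with 9730 and 11136 CPM in the controls and 12521, 11459 and 14566 CPM in triptolide A, B and 3. Its triptolide values lay above both controls, but its log2 fold change of 0.30 ± 0.16 (SE) did not pass the test across all loci (edgeR quasi-likelihood test, Benjamini-Hochberg adjusted p = 0.262). The effective length implied for its most counted transcript was 38868 bases. This length was worked out from the count and the FPKM, a count divided by length and library total. The total of lncRNA counts was assumed to be the one used in the FPKM.

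XLOC_067852 (chr15:63718316-63737689, plus strand), which begins at 4930449C09Rik, had 6760 and 6840 CPM in the controls and 6290, 6190 and 6060 CPM after triptolide. This log2 fold change of -0.14 ± 0.15 did not pass the test either (edgeR adjusted p = 0.666). Per length the order of the 2 loci turned, because the main transcript of XLOC_067852 is short, with an effective length of 1570 bases worked out in the same way. On the FPKM scale, which divides by length, XLOC_067852 stood at 4310 and 4330 in the controls and XLOC_166709 at 218 and 250.

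XLOC_176685 (chr8:20079638-20095573, plus strand) rose most among the 10. It had 2570 and 2970 CPM in the controls and 7890, 6150 and 8000 CPM in triptolide A, B and 3. The groups are far apart, and the log2 fold change was 1.41 ± 0.17 (edgeR adjusted p = 3.21e-06). A second, much rarer locus next to it on the same strand, XLOC_176689, held 36.3 and 55.1 CPM in the controls and 150, 116 and 127 CPM after triptolide, a log2 fold change of 1.51 ± 0.26 (edgeR adjusted p = 4.80e-04). The nearest RefSeq genes on either side are the gene models Gm20778 and Gm21811, and no source used here says whether reads that map to several places were counted.

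XLOC_151058 (chr5:116985596-117018010, minus strand), which overlaps the RefSeq lncRNA Gm30028, rose by 1.02 ± 0.18 on the log2 scale (edgeR adjusted p = 5.44e-04). Its controls stood at 2010 and 2060 CPM and its triptolide libraries at 4280, 3280 and 4730 CPM. All of its 3 triptolide values exceed both controls by more than 1000 CPM. XLOC_096861 (chr18:66966482-67066543, minus strand) rose less, from 4440 and 4610 CPM to 6220, 6410 and 7650 CPM (log2 fold change 0.58 ± 0.16, edgeR adjusted p = 0.0221). Its call was lost without control 1 (0.53, adjusted p = 0.107), without triptolide A (0.63, adjusted p = 0.0779) and without triptolide 3 (0.47, adjusted p = 0.152).

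The head-to-head pair XLOC_020567 and XLOC_015689 (chr10:66682089-66698141, minus strand, and chr10:66698191-66710058, plus strand), whose starts lie 50 bases apart, fell together. XLOC_020567 had 5270 and 6180 CPM in the controls and 3440, 3250 and 4140 CPM after triptolide (log2 fold change -0.66 ± 0.16, edgeR adjusted p = 0.0100). XLOC_015689 had 4050 and 4610 CPM in the controls and 2580, 2210 and 2550 CPM after triptolide (log2 fold change -0.82 ± 0.16, edgeR adjusted p = 0.00164). In both loci every triptolide library was below both controls. The fall of XLOC_020567 did not pass without control 2 (-0.51, edgeR adjusted p = 0.0966) or without triptolide A (-0.64, adjusted p = 0.0778).

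The remaining loci of the 10 did not pass the test. XLOC_018988 (chr10:18796840-18831987, minus strand), which begins at 4930444F02Rik, was at 5340 and 6080 CPM in the controls and 4710, 3580 and 5110 CPM after triptolide (edgeR adjusted p = 0.223). XLOC_144881 had 3830 and 4040 CPM in the controls and 4910, 4690 and 5690 CPM after triptolide (edgeR adjusted p = 0.162). XLOC_193256, which lies within the span of Cyp19a1 on the same strand, the gene of the aromatase that makes oestrogen, had 2740 CPM in both controls and 3480, 3140 and 4180 CPM after triptolide (edgeR adjusted p = 0.156). Reads of this locus and of the aromatase gene cannot be told apart where their exons overlap. XLOC_055801 overlapped between the groups, with 3520 and 4250 CPM in the controls and 4140, 3700 and 5050 CPM after triptolide.

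**Figure D2:**
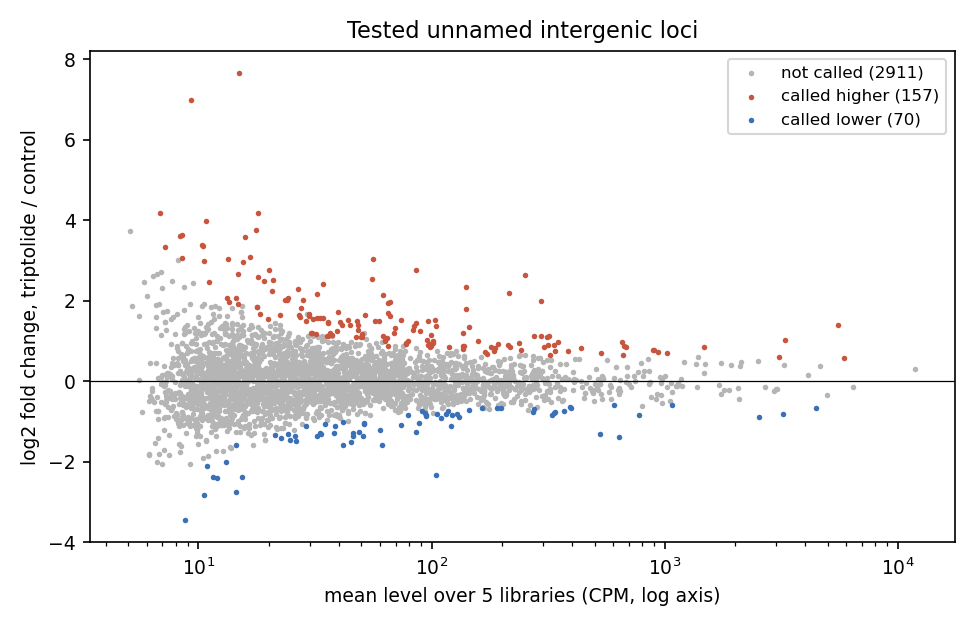
Log2 fold change of triptolide over control against the mean CPM over 5 libraries (log axis) for the 3138 tested loci, 1 dot a locus. The 157 loci called higher (red) and the 70 called lower (blue) frame a grey cloud of loci that were not called, and the largest fold changes are found at low CPM.

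Across the 3138 tested loci, 157 were higher and 70 lower after triptolide at an adjusted p under 0.05 in edgeR's quasi-likelihood test over all 6888 tested lncRNA loci. Over all of these, 5.01% were called higher and 2.26% lower, and the shares among the unnamed intergenic loci were close to these, at 5% and 2.23%. Taken in either direction, 227 loci (7.23%) were called, against 7.27% of all tested loci. All triptolide libraries lay above both controls at 605 of the loci and below both at 542, where over all tested loci this held for 19.7% and 18.3%. The median log2 fold change was 0.01 among them and 0.00 over all. Intergenic loci that carry a known lncRNA had 36 higher and 29 lower calls of 747. In bulk testis, fewer cells of a type and less RNA per cell cannot be told apart.

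Loci called higher had a median of 28.5 CPM in the controls and 80.2 CPM after triptolide, with a median fold of 2.62, and 52 of them had a mean of at least 100 CPM. Loci called lower had a median of 114 CPM in the controls and 52.8 CPM after triptolide, with a median fold of 2.13. Calls were more frequent where counts were higher, with 2.55% of the 628 least counted and 14.5% of the 628 most counted of the tested loci called. Single libraries weighed on these counts. Without control 1, the calls fell to 92 higher and 26 lower, without triptolide A to 97 and 35, and without triptolide 3 to 82 and 44. Without control 2 they were 164 and 53, and without triptolide B they were 206 and 67. Estimated fragment lengths also went with the groups, at 289 and 278 bases in the controls and 257, 264 and 258 bases in the 3 triptolide libraries of the mRNA table (exact permutation p = 0.1, the smallest possible), and their part in the results was not tested.

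Among the 10 largest rises of loci with at least 20 CPM in the higher group, several were close to silent in the controls. XLOC_060941 (chr14:9159277-9161235, minus strand) had 0 counts in both controls and 27.4, 27.4 and 19.4 CPM in triptolide A, B and 3. Taking 3 counts in each control library as the floor, it was at least 8.38-fold higher (edgeR adjusted p = 5.17e-05). No RefSeq gene lies within 5000 bases of it.

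XLOC_144883 (chr5:113377241-113407165, plus strand) gave one of the clearest rises, from 15.5 and 22.4 CPM to 130, 90.7 and 171 CPM (log2 fold change 2.77 ± 0.33, edgeR adjusted p = 1.23e-06). It lies on the same chromosome and strand as the abundant XLOC_144881, and Aym1 is its nearest RefSeq gene on one side. XLOC_066797, which overlaps the RefSeq lncRNA Gm34590, went from 2.07 and 3.73 CPM to 24.3, 21.7 and 31.1 CPM (log2 fold change 3.08 ± 0.60, edgeR adjusted p = 0.00152). In both, the lowest triptolide library was several times the highest control.

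The size of the rise rested on 1 control library at 4 of these loci. XLOC_151016 had 3.11 and 0 CPM in the controls and 23.2, 18.9 and 44.7 CPM after triptolide, with a log2 fold change of 4.19 ± 0.74 (edgeR adjusted p = 5.71e-04). Without control 2 the change was 3.21, and without control 1 the remaining control has 0 counts, so that no fold is given. XLOC_141332 changed by 2.96 ± 0.65, by 4.49 without control 1, when 1 control count remains, and by 2.22 without control 2. XLOC_169747 changed by 2.77 ± 0.62, by 1.99 without control 1 and by 4.76 without control 2, when again 1 count remains, and its call was lost without triptolide 3 (adjusted p = 0.0831). XLOC_138895 had 0 and 4.67 CPM in the controls and 12.7, 21.7 and 28.2 CPM after triptolide, and changed by 3.04 ± 0.75. Control 1 has 0 counts, so that no fold without control 2 is given, and the call was lost without control 1 (2.12, adjusted p = 0.0873) and without triptolide 3 (2.75, adjusted p = 0.0786).

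The best supported fall was that of XLOC_090809 (chr17:87462263-87474046, minus strand), which overlaps the RefSeq lncRNA Gm30938. It had 224 and 176 CPM in the controls and 50.7, 42.5 and 27.2 CPM in triptolide A, B and 3. All triptolide values lay more than 100 CPM below the lower control, and the log2 fold change was -2.32 ± 0.25 (edgeR adjusted p = 2.75e-07). This call held without any single library.

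The rest of the 8 largest falls had control means of 20.3 to 30.1 CPM, and each lost its call when some single library was left out. XLOC_030506, head to head with 4930524B15Rik, had 36.3 and 23.3 CPM in the controls and 5.28, 4.72 and 2.91 CPM after triptolide (log2 fold change -2.75 ± 0.54, edgeR adjusted p = 0.00155). Without control 1 its change was -2.43 (adjusted p = 0.0818). For XLOC_094560, XLOC_072177 and XLOC_124138 the values without control 1 were -2.21 (adjusted p = 0.361), -1.78 (adjusted p = 0.433) and -1.73 (adjusted p = 0.314), against -2.83, -2.40 and -2.38 with all libraries. XLOC_072177 was also lost without triptolide 3 (adjusted p = 0.0704). XLOC_134657 (-2.38), XLOC_057050 (-2.10) and XLOC_054806 (from 23.9 to 5.85 CPM in the mean) were lost without control 1, without control 2 and without triptolide 3, at adjusted p from 0.0536 to 0.349, XLOC_057050 also without triptolide B and XLOC_054806 also without triptolide A. Without triptolide B, XLOC_134657 stood at -3.75.

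**Figure D3:**
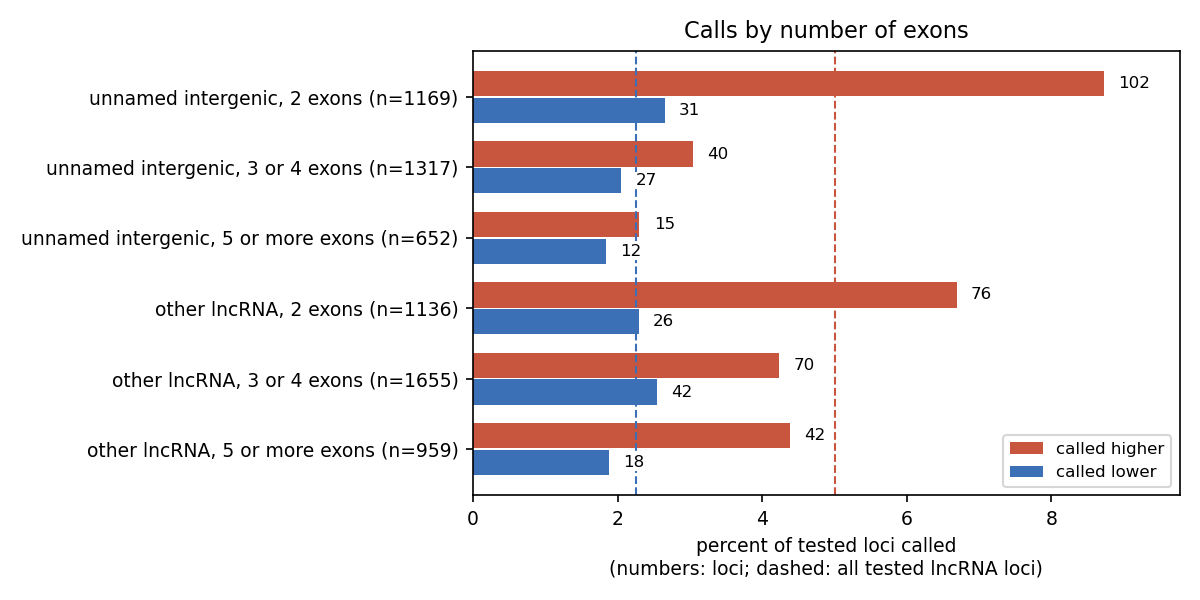
Percent of tested loci called higher (red) or lower (blue) after triptolide by the largest number of exons of a locus, for unnamed intergenic loci and for all other lncRNA loci, with the number of loci at each bar and the share over all tested loci as dashed lines. The red bar is longest for unnamed intergenic loci of 2 exons.

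The direction of calls went with the build of the locus. Of 1169 tested loci with 2 exons, 102 rose and 31 fell (8.73% and 2.65%). Of 652 loci with 5 or more exons, 15 rose and 12 fell (2.30% and 1.84%). The share that rose was higher among 2-exon loci, and the median log2 fold changes were 0.09 and -0.05. Other lncRNA loci of 2 exons had 6.69% called higher and those of 5 or more exons 4.38%. Loci with a single transcript had 90 higher and 27 lower of 1183 (7.61% and 2.28%). Those with 2 to 4 transcripts had 53 and 33 of 1490 (3.56% and 2.21%), and those with at least 5 had 14 and 10 of 465 (3.01% and 2.15%). Over all tested lncRNA loci the shares were 5.01% and 2.26%. The split by exons was made after the values were seen and is a description without a test of its own, and the 2-exon share stayed above that of loci with 5 or more exons in each of the 10 alternative fits, at 2.85% to 11.3% against 0.790% to 4.76%. The share that fell ranged from 0.775% to 2.91% in 2-exon loci and from 0.147% to 2.38% in loci with 5 or more exons over these fits, and only 1 of the latter fell without control 1 or without triptolide A.

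Among the loci richest in transcripts none passed the test. XLOC_071752, with 27 transcripts, had 764 and 762 CPM in the controls and 656, 882 and 527 CPM after triptolide, and XLOC_079993, with 23, had 187 and 201 CPM and 216, 217 and 206 CPM. The log2 fold changes of the 4 were -0.15 (XLOC_071752), 0.14 (XLOC_079993), -0.13 (XLOC_180039) and -0.07 (XLOC_059135). When single transcripts were tested in place of loci, 0 of 13534 passed in edgeR. An unadjusted p under 0.05 was found for 503 of the 5295 transcripts of unnamed intergenic loci (9.50%) and for 1339 of all 13534 (9.89%). The most counted transcripts of XLOC_018988 traded places between libraries of the same group. TCONS_00032661 held 18.9% and 30.8% of its counts in the controls and 11.7%, 0.0214% and 16.5% in triptolide A, B and 3. At XLOC_015689, TCONS_00026974 held 24.1% and 24.5% of the counts in the controls and 0% in all 3 triptolide libraries (edgeR adjusted p = 0.132).

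**Figure D4:**
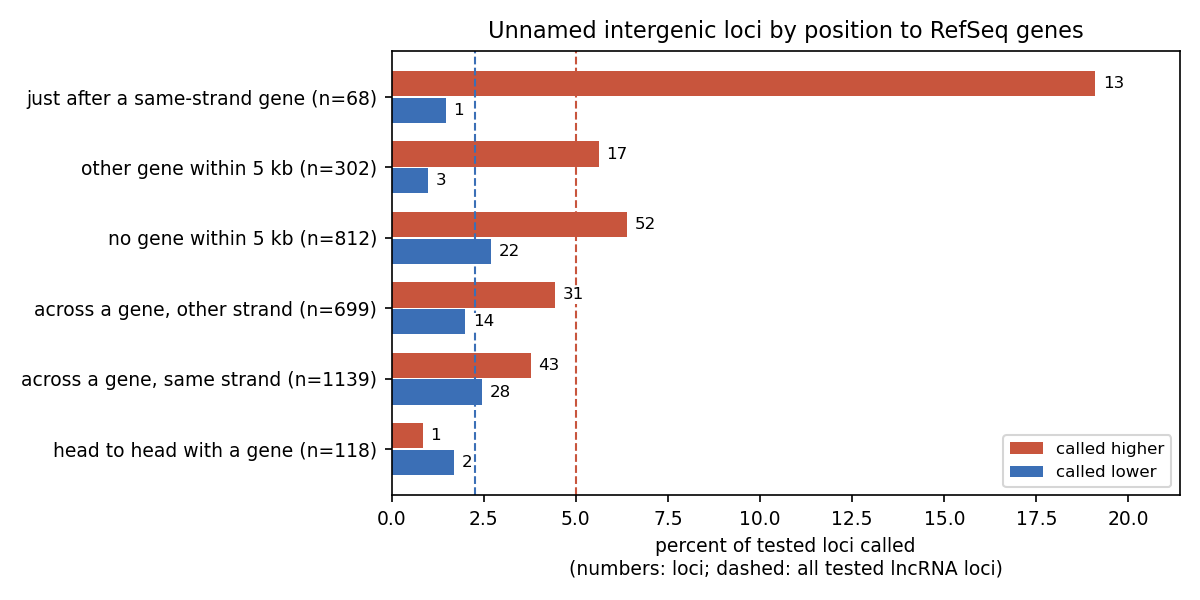
Percent of tested unnamed intergenic loci called higher (red) or lower (blue) after triptolide by position to RefSeq genes, with the number of loci at each bar and the share over all tested lncRNA loci as dashed lines. Loci just after a gene on the same strand have the longest red bar, 13 of 68 loci.

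Position to the nearest RefSeq gene also went with the calls. Just after a gene means that the locus begins at most 5000 bases behind its end on the same strand, without overlap. Of 195 such loci 68 were tested, and 13 rose and 1 fell, so 19.1% rose where 5.01% of all tested loci did. Their median log2 fold change was 0.34. Behind a protein-coding gene, 10 of 46 rose and 0 fell. Intergenic loci of the other classes in the same position rose in 6 of 10. Position and exon number overlap, since 12 of the 13 rises were 2-exon loci (12 of 54, 22.2%), and 2-exon loci elsewhere rose in 90 of 1115 (8.07%). The position was chosen after the values were seen and the contrast is given without a test.

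In other positions the shares that rose were lower than the 19.1% just after a gene. Over all tested lncRNA loci, 5.01% rose and 2.26% fell. Across a gene on the same strand, 43 of 1139 rose (3.78%) and 28 fell (2.46%). Across a gene on the other or an unknown strand, 31 of 699 rose (4.43%) and 14 fell (2%). With no gene within 5000 bases, 52 of 812 rose (6.4%) and 22 fell (2.71%). With another gene within 5000 bases, 17 of 302 rose (5.63%) and 3 fell (0.993%). Head to head with a gene and across none, 1 of 118 rose (0.847%) and 2 fell (1.69%). The strand was known for 27025 of 49997 RefSeq genes, so some loci behind a gene of unknown strand are not counted as such. Left-out libraries changed the number of rises just after a gene to between 10 and 15. The summed CPM of the 68 loci was 4645 and 3937 in the controls and 5605, 4493 and 6439 in triptolide A, B and 3, so that the groups overlap in the sum even though single loci rose.

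**Figure D5:**
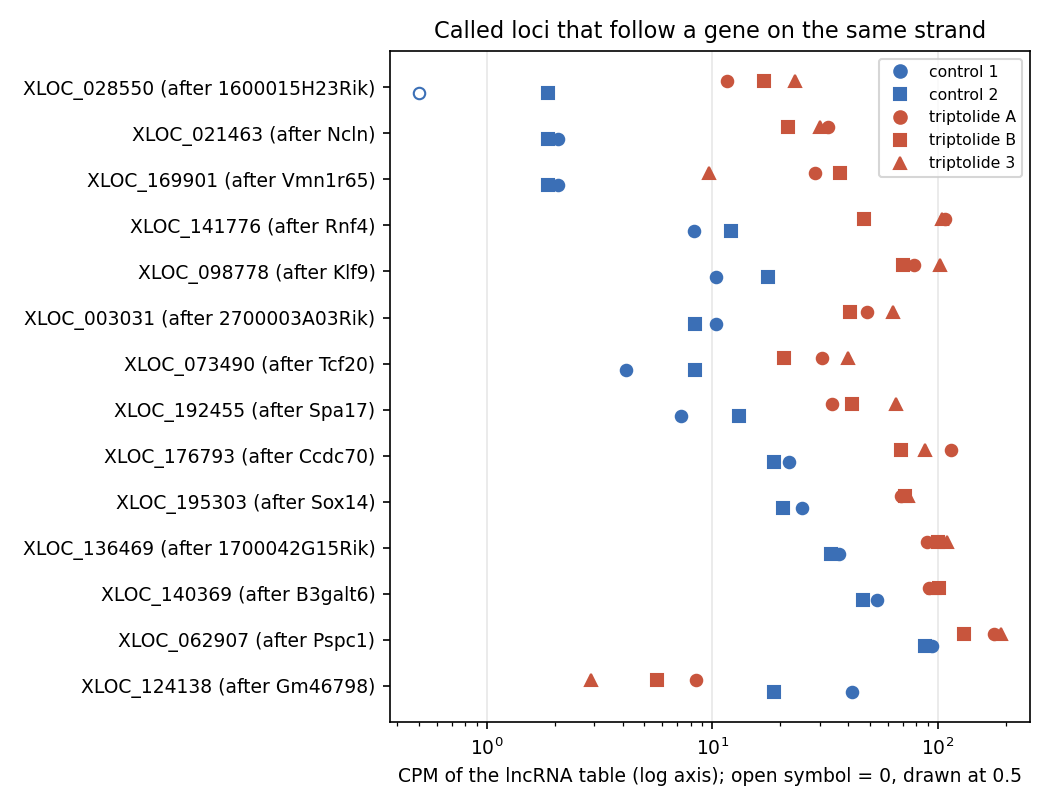
CPM (log axis) in each library of the 14 called unnamed intergenic loci that lie just after a RefSeq gene on the same strand, control in blue and triptolide in red. In 13 loci all triptolide symbols lie to the right of both controls, and XLOC_124138 shows the opposite order.

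Each of the rises can be named by the gene in front of it. XLOC_098778, behind the gene of the transcription factor Klf9, had 10.4 and 17.7 CPM in the controls and 78.1, 69.9 and 102 CPM after triptolide (log2 fold change 2.55 ± 0.35, edgeR adjusted p = 1.45e-05). XLOC_141776, behind Rnf4, which encodes a ubiquitin ligase for SUMO-modified proteins, had 8.29 and 12.1 CPM in the controls and 108, 47.2 and 104 CPM after triptolide (3.05 ± 0.41, edgeR adjusted p = 1.09e-05). Triptolide B was the lowest of the treated libraries at both loci, and still several times the controls. XLOC_195303, behind the transcription factor gene Sox14, had 24.9 and 20.5 CPM in the controls and 68.6, 71.8 and 73.8 CPM after triptolide (1.65 ± 0.31, edgeR adjusted p = 9.50e-04). XLOC_073490, behind the coregulator gene Tcf20, changed by 2.24 ± 0.50, by 2.88 without control 2, and lost its call without triptolide 3 (1.98, adjusted p = 0.0561).

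Further rises lay behind other genes. XLOC_176793, behind Ccdc70, a gene of a coiled-coil protein, had 21.8 and 18.7 CPM in the controls and 114, 69.0 and 87.4 CPM after triptolide (2.15 ± 0.32, edgeR adjusted p = 5.67e-05). XLOC_192455, behind the sperm protein gene Spa17, had 7.25 and 13.1 CPM in the controls and 33.8, 41.6 and 65.1 CPM after triptolide (2.18 ± 0.42, edgeR adjusted p = 0.00120). XLOC_021463, behind Ncln, the gene of a membrane protein of the endoplasmic reticulum, stood at 2.07 and 1.87 CPM in the controls and 32.7, 21.7 and 30.1 CPM after triptolide (3.76 ± 0.63, edgeR adjusted p = 2.76e-04). No control and triptolide values overlapped at these 3 loci.

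XLOC_169901, behind the vomeronasal receptor gene Vmn1r65, had 2.07 and 1.87 CPM in the controls and 28.5, 36.8 and 9.71 CPM after triptolide (3.59 ± 0.72, edgeR adjusted p = 0.00185). The rises behind lncRNA genes, XLOC_136469 (1700042G15Rik) and XLOC_003031 (2700003A03Rik), measured 1.52 ± 0.27 and 2.43 ± 0.40 on the log2 scale. XLOC_028550, behind 1600015H23Rik, was near silent in the controls (0 and 1.87 CPM) and changed by 3.99 ± 0.90 and by 3.12 without control 1, while the other control has 0 counts and gives no fold alone. The rises behind Pspc1, whose protein is a component of paraspeckles, and B3galt6, a galactosyltransferase gene, were small (0.87 and 0.94 for XLOC_062907 and XLOC_140369). Both calls were lost without either control, without triptolide A and without triptolide 3, at adjusted p from 0.0511 to 0.125.

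Of 325 tested loci that start head to head with a RefSeq gene, 10 rose and 5 fell (3.08% and 1.54%, against 5.01% and 2.26% of all tested loci). Beside protein-coding genes 7 of 204 rose and 3 fell. The 325 include loci that also lie across a gene, unlike the 118 above. All triptolide libraries lay above both controls at 51 of the 325 and below both at 65. Over all 6888 tested lncRNA loci this held for 19.7% and 18.3%. XLOC_196012, the most counted of the called ones, lies opposite 4930520O04Rik and fell from 1330 and 1340 CPM to 949, 894 and 834 CPM (log2 fold change -0.58 ± 0.17, edgeR adjusted p = 0.0288). It also overlaps the RefSeq lncRNA 4930525D18Rik on its own strand. XLOC_135472 lies opposite Akirin2, whose protein takes part in nuclear import of proteasomes, and rose from 273 and 170 CPM to 432, 355 and 507 CPM (0.97 ± 0.22, edgeR adjusted p = 0.00442). The direction thus differed between these loci, and each is counted on the strand opposite to its head-to-head gene. The start of XLOC_135472 lies at -136 bases from that of Akirin2, which is a crossing. This locus begins inside the gene and overlaps it on the other strand.

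XLOC_184031, opposite Ttc29, the gene of an axonemal protein of the sperm tail, fell from 94.3 and 54.2 CPM to 32.7, 35.0 and 39.8 CPM (-1.04 ± 0.29, edgeR adjusted p = 0.0269). It also overlaps the pseudogene Gm45574 and the RefSeq lncRNA Gm39202, on the other or an unknown strand. XLOC_168496, opposite Tmc7, a gene of the transmembrane channel-like family, rose from 22.8 and 35.5 CPM to 69.7, 48.2 and 72.8 CPM (1.11 ± 0.32, edgeR adjusted p = 0.0293). This locus also overlaps the RefSeq lncRNA B230311B06Rik on its own strand. All 4 calls were lost in some leave-one-out fit. XLOC_196012 lost its call without either control, triptolide A or triptolide 3 (adjusted p from 0.0875 to 0.125), and XLOC_135472 without control 2 only (0.70, adjusted p = 0.0801). XLOC_184031 passed only without control 2 among these fits, and its change without control 1 was -0.61 (adjusted p = 0.451). XLOC_168496 lost its call without control 1, triptolide A and triptolide 3 (adjusted p from 0.121 to 0.272), and both of the latter 2 loci also lost it in DESeq2 (adjusted p = 0.0655 and 0.0657).

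The loci also faced each other. There were 288 head-to-head pairs of them, and starts that cross by less than 300 bases were again included. Members of such crossing pairs overlap, and their distance was counted as negative. The median of the signed distances was 89 bases, and the median without sign is not given. In 205 pairs the starts lay within 200 bases of each other in either direction. Both members were tested in 104 pairs, and in 64 of these the log2 fold changes had the same sign (across pairs, which share libraries, Pearson's r was 0.22 and Spearman's rho 0.28). In 14 of these 104 pairs at least 1 member was called, and only for XLOC_020567 and XLOC_015689 were both called. Of 325 tested loci in any of the pairs, 20 were called (6.15%), against 7.27% of all tested lncRNA loci. No chain of 3 or more called loci within 100000 bases of each other was found, while 12 pairs of called neighbours were. For these pairs no share over all lncRNA loci is given.

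On the sex chromosomes, whose genes are silenced in meiosis, the most counted locus was XLOC_203295 (chrX:150157428-150177283, minus strand). This locus overlaps the RefSeq gene Gm20153, listed as protein-coding, on the same strand and begins within 100 bases of its start. It had 1940 and 1620 CPM in the controls and 1550, 2020 and 1440 CPM after triptolide, with overlap. XLOC_197672 had 1150 and 1310 CPM in the controls and 1770, 1430 and 1780 CPM after triptolide, and its log2 fold change of 0.43 ± 0.18 did not pass (edgeR adjusted p = 0.140). XLOC_201780 had 778 and 608 CPM in the controls and 891, 729 and 828 CPM after triptolide, with overlap. The X-linked loci took 1.89% and 1.69% of the counts of unnamed intergenic loci in the controls and 1.95%, 2.00% and 1.80% after triptolide (exact permutation p = 0.4). Of 38 tested, 1 rose (2.63%, against 5.01% of all tested loci).

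On chromosome Y 29 of 59 loci were tested, and 2 rose (6.90%, against 5.01% of all tested loci) and 0 fell. The Y-linked loci took 0.406% and 0.457% of the counts of unnamed intergenic loci in the controls and 0.551%, 0.551% and 0.516% in triptolide A, B and 3. The groups did not overlap, and the mean was higher by 0.108 percentage points after triptolide (two-sided exact permutation p = 0.1, the smallest possible). This share was added after the data were seen, and with 1 library left out the difference was 0.0824 to 0.133 points. The share was not worked out without the 2 loci that rose, so how far it rests on them was not tested. XLOC_205958 had 14.5 and 32.7 CPM in the controls and 115, 83.1 and 86.4 CPM after triptolide (1.98 ± 0.32, edgeR adjusted p = 2.13e-04), and its change was 2.74 without control 2. XLOC_205979 had 113 and 190 CPM in the controls and 319, 208 and 355 CPM after triptolide (0.95 ± 0.24, edgeR adjusted p = 0.0127), a call lost without control 1 (0.62, adjusted p = 0.208) and without triptolide 3 (0.78, adjusted p = 0.103). Chromosome Y carries many near-identical gene copies, so reads of these loci may belong to other copies.

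The tissue was checked on circular RNAs, since the mRNA table lists transcripts by Ensembl identifier only. Circles were found for 10 of 14 genes of meiotic prophase and 11 of 12 genes of the axoneme, and for 0 of 8 Sertoli cell genes and 0 of 5 epididymis genes. They were found for 2 of 8 genes of spermatogonia, 1 of 7 of Leydig cells, 1 of 6 of immune cells and 0 of 5 of endothelium and smooth muscle. A gene can be expressed without a detected circle, so these counts do not show which cell types were absent. For 8 of 10 genes of the piRNA pathway circles were found, while for elongating spermatids they were found for 2 of 12, with Prm1, Tnp1 and Tnp2 listed at 0. The summed level of the 2 spermatid hosts was 746 and 290 SRPBM (junction reads scaled to the library) in the controls and 105, 210 and 95 SRPBM in the 3 triptolide columns, which cannot be matched by name to the lncRNA columns. The controls differed from each other more than the triptolide columns did, and 1 of the 2 hosts had circles in all libraries. The sum of the 3 round spermatid hosts overlapped, at 718 and 1011 SRPBM in the controls and 626, 1144 and 639 SRPBM after triptolide. So did the sums of the meiotic hosts (2516 and 3410 against 2633, 2976 and 2403) and of the axoneme hosts (6333 and 7857 against 6551, 9504 and 5968). Whether a change in cell makeup has a part in the changes of the loci was not tested. Of 29 unnamed loci next to a gene of these lists 12 were tested, and 1, XLOC_146230 beside the cohesin gene Stag3, was called and rose. Over all tested lncRNA loci 7.27% were called in either direction, so 1 call among 12 does not set these neighbours apart.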

How the data were processed

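The deposited tables cover 5 libraries of directional, ribosome-depleted RNA from testis. Per the file headers, the lncRNA table gives expected counts and FPKM per assembled transcript; 2 FPKM columns of triptolide libraries that share headers were not used. FPKM was deposited by the authors per transcript and was summed per locus. The mRNA table gives expected counts, FPKM and a transcript length (an other unit, deposited by the authors), used here only to estimate fragment length. The circRNA table, deposited by the authors, gives a rounded SRPBM score. The submitters' processing notes name HISAT2 2.0.1, HTSeq 0.6.1, bedtools 2.17.0 and DESeq without roles, and the build hg19, a human one. Of 9796 circRNAs with a symbol in RefSeq, 9709 (99.1%) lie inside that gene on GRCm38.p6, so this annotation was used for neighbours. How the expected counts were made and how reads of several places were counted, no source used here states.

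Expected counts were summed per locus and rounded. All 16356 loci entered edgeR 4.0.16 (R 4.3.3; filterByExpr, TMM, quasi-likelihood test), and p-values were adjusted by the method of Benjamini and Hochberg over 6888 tested loci, with a threshold of 0.05. The SE is the log2 fold change divided by the root of F. Differences in library values were tested with a two-sided exact permutation test (10 assignments). DESeq2 1.42.0, limma 3.58.1 (prior count 2), other filters and left-out libraries were the alternatives. Loci named are the 10 with the highest mean CPM, the 10 largest rises and 8 largest falls with at least 20 CPM in the higher group and no overlap, the 4 with the most transcripts and the 3 most counted on the sex chromosomes. Loci named for their position (after a gene, head to head, beside each other, on chromosome Y) were chosen after their values were seen. The members and lists were chosen with earlier results of these data known. Depth is known here as the lncRNA counts only. The SE and p-values measure the spread between libraries.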

Additional observations from a re-analysis of the deposited data

How the results depend on the processing

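Counts of 157 higher and 70 lower loci moved less without TMM scaling (162 and 76), with limma (175 and 68), without a filter (178 and 80) and with a mean count of at least 10 (150 and 68) than in DESeq2. There they fell to 126 higher and 47 lower. Leaving out 1 library gave 82 to 206 higher and 26 to 67 lower calls. Only counting the 5538 loci, tested or not, with no same-strand gene of known strand within 5000 bases, there were 85 and 40. The number tested among them is not given, so these counts do not show a change in share. Genes of unknown strand may still lie near them. Testing single transcripts gave 0 and 0, with an unadjusted p under 0.05 in edgeR for 503 of 5295 (9.50%, against 9.89% of all transcripts). In limma, which adds a prior count of 2, the log2 fold changes of rare loci were smaller (3.75 for XLOC_060941, 3.21 for XLOC_151016, 2.92 for XLOC_021463, 2.61 for XLOC_169901, 2.76 for XLOC_028550 and -2.19 for XLOC_094560), and these were still called. In none of the alternative fits at locus level did a called locus turn its direction while called. Of the 157 rises, 123 were also called in DESeq2 and 76 to 143 without 1 library; of the 70 falls, 45 and 23 to 51.

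The count of 13 rises just after a gene was 10 to 15 in the other fits; with other distances, chosen after seeing the data, it was 4 of 23 tested within 1000 bases, 9 of 39 within 2000, 17 of 111 within 10000 and 24 of 202 within 20000. The difference in detected loci (95.0) turned to -2.17 at a minimum of 5 counts. The ratio of counts to those of newly assembled intergenic loci that do carry a gene name was higher by 1.08 after triptolide and by -0.427 without the 10 most counted loci of each class. Without control 1, the log2 fold change of XLOC_055801 went from 0.15 to -0.00 (0.33 at most, without control 2) and that of XLOC_203295 from -0.09 to 0.02 (-0.22 at the lowest, without triptolide B); none of these passed a test, and the cause was not tested. No paired analysis was possible because 2 triptolide columns carry no number of their own, which leaves fewer than 2 numbers shared with the controls. For the same reason a joint fit with the mRNA table was not run. Depth limited the test to 3138 loci, and 4862 loci with a mean under 10 counts were not tested.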
